A study of Mus musculus with 16 samples.

Results

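The 10 genes described here govern or mark the epithelial-mesenchymal transition (EMT), and 146 of the 80367 listed ATAC-seq peaks (regions) were assigned to them. A peak counted for a gene when, among all protein-coding genes, that gene had the transcription start site nearest to the centre of the peak. On the mesenchymal side stand *Vim*, *Zeb1*, *Zeb2*, *Snai1*, *Snai2*, *Twist1* and *Cdh2*, with 96 peaks, and on the epithelial side stand *Cdh1*, *Epcam* and *Grhl2*, with 50. The cells were small cell lung cancer (SCLC) cells from tumors of *TKO*;*Hes1* GFP/+ mice, sorted by flow cytometry into GFP-high cells, which are non-neuroendocrine (non-NE), and GFP-neg cells, which are neuroendocrine (NE). All mice carried floxed *Rb*, *p53* and *p130* alleles and received Ad-CMV-Cre into the trachea as young adults, so both groups come from triple knockout tumors, and the CMV promoter does not restrict the deletion to 1 cell type. The GFP reporter sits at the *Hes1* locus itself, on 1 of its alleles, and the cells of each mouse came from pooled lung tumors taken months after induction. The labels give 3 mice, numbered 521, 524 and 1561, with 4 libraries per group, since mouse 524 gave 2 pairs of libraries that the deposited description counts as technical replicates. Each of the 8 libraries was run on 2 lanes.

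ATAC-seq reads accumulate where the Tn5 transposase can reach the DNA, so a peak marks accessible chromatin. Opened peaks are those that the authors listed as more accessible in GFP-high cells, and closed peaks are those listed as more accessible in GFP-neg cells. The files hold values of the whole comparison only, of which the mean normalized count over all libraries is used here. The authors' fold changes and p-values were not used. Without a value per library, no spread between mice and no new test over libraries can be given, and the depth of each library is unknown. The mean normalized count is an average over the libraries of both groups, not a total of reads, and does not give the size of the difference. In sorted populations, a site that is open in more of the cells and a site that is more open in each cell cannot be told apart. Peaks that missed the authors' limits were not analysed here, so a gene without a listed peak may still be accessible in both groups.

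In EMT, epithelial cells give up their cell-cell junctions and take on a motile, mesenchymal form. ZEB1, ZEB2, SNAI1 and SNAI2 are zinc finger repressors that bind E-box sequences, and their best known target is *Cdh1*, which encodes E-cadherin of epithelial adherens junctions. TWIST1 is a basic helix-loop-helix factor of mesenchymal development, *Cdh2* encodes N-cadherin, which neural and mesenchymal cells carry, and *Vim* encodes the intermediate filament vimentin. On the other side, *Epcam* encodes an adhesion molecule of epithelial cells, and GRHL2 is a transcription factor that maintains epithelial genes, *Cdh1* among them. Lung neuroendocrine cells are epithelial cells that also carry neural adhesion molecules.

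The sequences of strong regions outside annotated exons are shown for *Snai1*, *Zeb2* and *Epcam*, whose promoters are in the RefSeq table used here, as are those of *Vim* and *Twist1*. All are from the plus strand of mm10 (GRCm38), 5′ to 3′, and 200 bp long. Capitals mark an exact match to 1 of the 8 short cores that were searched, and the first is the promoter of *Snai1*, which encodes an E-box repressor and itself holds an E-box.
*Snai1*, promoter, opened, chr2:167537995-167538194: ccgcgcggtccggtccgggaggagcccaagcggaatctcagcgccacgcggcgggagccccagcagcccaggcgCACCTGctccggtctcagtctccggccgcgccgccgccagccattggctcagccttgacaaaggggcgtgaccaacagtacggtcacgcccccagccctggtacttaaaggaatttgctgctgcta
*Zeb2*, highest opened peak, far upstream, chr2:46443551-46443750: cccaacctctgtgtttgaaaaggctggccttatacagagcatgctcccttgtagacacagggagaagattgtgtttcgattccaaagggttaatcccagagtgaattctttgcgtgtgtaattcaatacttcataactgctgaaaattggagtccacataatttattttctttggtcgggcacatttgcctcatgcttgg
*Epcam*, highest opened peak, upstream, chr17:87620076-87620275: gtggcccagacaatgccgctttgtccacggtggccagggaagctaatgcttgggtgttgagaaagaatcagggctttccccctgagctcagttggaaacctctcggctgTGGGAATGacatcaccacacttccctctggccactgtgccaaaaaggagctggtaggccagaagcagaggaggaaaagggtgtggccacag
*Epcam*, highest closed peak, upstream, chr17:87608982-87609181: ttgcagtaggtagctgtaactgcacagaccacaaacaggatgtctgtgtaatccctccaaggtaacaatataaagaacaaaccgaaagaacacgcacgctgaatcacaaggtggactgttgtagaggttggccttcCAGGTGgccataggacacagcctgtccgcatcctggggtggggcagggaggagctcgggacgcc
In *Snai1* the capitals are the ZEB/SNAI E-box, read as CACCTG, 126 bp upstream of the start site. The closed *Epcam* region holds the same E-box on the other strand, CAGGTG, and the opened *Epcam* region holds an RBPJ core, TGGGAA, that overlaps a TEAD core, GGAATG, by 4 bases. The opened *Zeb2* region holds none of the 8 cores. Of the 32851 RefSeq promoters, 17.2% hold the ZEB/SNAI E-box in the 250 bp before the start site. The matched promoters of *Vim*, *Twist1* and *Zeb2* lack it, that of *Snai1* has 1 and that of *Epcam* has 2, and of these promoters only that of *Snai1* overlaps a listed peak.

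Of the 146 peaks, 57 were opened and 89 were closed. The opened share was 39.0% (Wilson interval at 95% confidence, for counting error only, 31.5 to 47.1%), against 50.8% of all listed peaks, while 49.2% of all listed peaks were closed. This difference was absent among peaks within 100 kb of a start site (50.6%) and turned without *Cdh2* (53.9%). The sides went opposite ways. Only 20 of the 96 mesenchymal-side peaks were opened, a share of 20.8% (13.9 to 30.0%), whereas 37 of the 50 epithelial-side peaks were, a share of 74.0% (60.4 to 84.1%). A single gene carries much of each share, since *Cdh2* has 42 of the 76 closed mesenchymal-side peaks and *Grhl2* has 25 of the 37 opened epithelial-side peaks. Without *Cdh2* the mesenchymal-side share was 34.6% (23.2 to 48.2%), and without *Grhl2* the epithelial-side share was 54.5%, close to that of all peaks. Of the 34 closed mesenchymal-side peaks outside *Cdh2*, 26 belong to *Zeb2*, and 17 of these lie over 500 kb from it. The opened and closed peaks of the other genes of this side were 6 and 5 (*Zeb1*), 3 and 0 (*Snai1*), 0 and 2 (*Snai2*), and 0 and 1 (*Twist1*). Peaks of 1 gene lie in the same stretch of DNA and are not independent of each other.

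**Figure D1:**
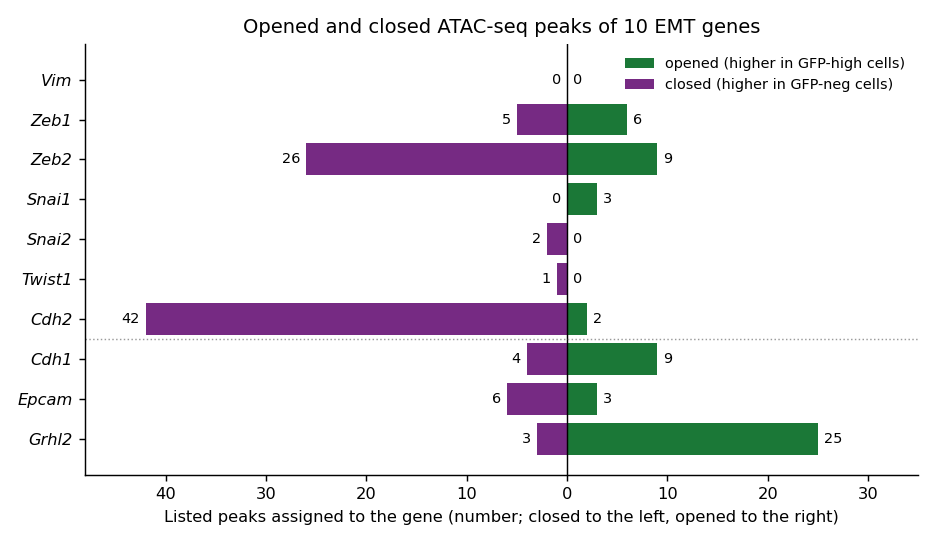
Number of listed ATAC-seq peaks per gene, opened peaks (more accessible in GFP-high cells) to the right and closed peaks (more accessible in GFP-neg cells) to the left of 0. Genes above the dotted line are the mesenchymal side, where *Cdh2* has 42 and *Zeb2* has 26 closed peaks, and those below it are the epithelial side, where *Grhl2* has 25 opened peaks.

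A listed peak was found for 9 of the 10 genes, against 66.5% of all 21924 protein-coding genes, and *Vim* was the exception. Of the 9, 4 had more opened than closed peaks (*Zeb1*, *Snai1*, *Cdh1* and *Grhl2*), against 54.9% of all genes with a peak. The other 5 had more closed peaks (*Zeb2*, *Snai2*, *Twist1*, *Cdh2* and *Epcam*), against 37.5%. The direction of *Zeb1* turned to 3 opened and 5 closed peaks when peaks were taken within 10 kb of the gene body and to 3 and 4 within 100 kb of the start site, and that of *Zeb2* turned to 4 and 3 within 10 kb of the gene body. Both lists were present at 6 of the 9 genes, against 41.5%. At the promoter, taken as 1 kb on either side of a start site of the gene itself, 3 of the 10 genes had an opened peak (*Snai1*, *Cdh1* and *Grhl2*), against 26.6% of all genes. A closed promoter peak was found at 4 (*Snai2*, *Twist1*, *Cdh2* and *Grhl2*), against 8.43%.

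*Cdh1*, the E-cadherin gene, is the most compact of these loci, with 13 peaks in a territory of 54.8 kb, or 23.7 peaks per 100 kb against 2.95 over the genome. Its territory is the stretch of DNA that is nearer to its start sites than to those of any other protein-coding gene. It had 9 opened and 4 closed peaks, and 12 of the 13 lie inside the gene. The interval of its opened share, 69.2% (42.4 to 87.3%), includes the 50.8% of all listed peaks. The strongest is an opened peak on the start site itself (chromosome 8, from 106603150 to 106603544, centre 4 bp upstream), with a mean normalized count of 338 over 395 bp. Per kb of peak this is 855, the highest of all peaks of the 10 genes. An opened peak of 58.3 follows 375 bp downstream of the start, and the other opened peaks lie in introns up to 37.7 kb downstream, the strongest of them at 16.3 kb with 189. The promoter of this epithelial gene was thus among the sites listed as more accessible in the non-NE cells. The gene body did not go 1 way, however, because the second strongest peak of the locus, with a mean normalized count of 255 at 5.12 kb in an intron, was closed. The other closed peaks had counts from 38.2 to 62.6. Adjacent peaks of *Cdh1* were in the same list in 5 of 12 pairs (41.7%), against 74.8% of adjacent pairs over all genes. From 7.82 to 17.3 kb downstream all its listed peaks were opened, and only farther downstream do the lists alternate. A further 2 opened peaks in the gene body count for *Tango6*, the next gene, whose start site is nearer.

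*Grhl2*, the gene of the epithelial factor, had 25 opened and 3 closed peaks in 209 kb, or 12.0 opened peaks per 100 kb against 1.5 over the genome. Of the 28 peaks, 22 lie nearer to a start site of a gene of another type, and 5 opened peaks and 1 closed peak remained when genes of any type were allowed, or 10 and 3 within 10 kb of the gene body. Its opened share of 89.3% (72.8 to 96.3%) compares with 52.4% of the peaks of its chromosome, chromosome 15. An opened peak of 875 bp covers the start site (from 37232586 to 37233460, centre 13 bp upstream) with a mean normalized count of 424, and an opened peak of 349 lies 1.44 kb downstream. The highest count of the locus, 557, belongs to an opened intergenic peak 97.2 kb upstream, and an opened peak of 206 lies 112 kb upstream. Inside the gene, a pair of opened peaks at 80.1 and 80.6 kb downstream had 252 and 131. So the opened sites reach from over 100 kb upstream into the distal introns, 16 of them upstream and 9 in the gene body. The 3 closed peaks had counts of 28.8, 40.4 and 47.7, and the last of them lies only 769 bp upstream of the start, beside the strong opened promoter peak. By the nearest start site, 1 more closed peak in the body of *Grhl2* counts for the neighbouring gene 4930447A16Rik.

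*Epcam*, unlike *Cdh1* and *Grhl2*, had more closed than opened peaks, with 3 opened and 6 closed in 113 kb. The interval of its opened share, 33.3% (12.1 to 64.6%), includes the 50.8% of all listed peaks. With start sites of any gene type, to which 5 of the 9 peaks lie nearer, 1 opened and 3 closed peaks remained, and within 10 kb of the gene body 0 and 2. None lies at its promoter. The closest is a closed peak over an exon 3.61 kb downstream of the start (chromosome 17, from 87640165 to 87640415) with a mean normalized count of 51.9, and a second closed exon peak at 9.65 kb had 11.8. Upstream, an opened peak of 102 lies 15.8 kb and a closed peak of 59.2 lies 26.9 kb from the start, and these are the regions whose sequences are shown above. The remaining 5 peaks lie between 50.4 and 71.9 kb upstream, with counts from 7.16 to 27.7, and 2 of the closed ones lie at the start of the transcript AC122818.2.

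*Cdh2*, the N-cadherin gene, had 42 closed and 2 opened peaks, an opened share of 4.55% (1.26 to 15.1%), against 41.7% of the peaks of chromosome 18. By its number of closed peaks it ranked 20 among 21924 protein-coding genes. With start sites of any gene type, to which 27 of its 44 peaks lie nearer, 15 closed and 2 opened peaks remained, with 15 and 1 within 10 kb of the gene body and 16 and 1 within 100 kb. Its territory of 2210 kb is wide, however, and its density of 1.9 closed peaks per 100 kb compares with 1.45 over the genome and its density of opened peaks, 0.0904 per 100 kb, with 1.5. The start site is covered by a closed peak of 934 bp (from 16808728 to 16809661, centre 52 bp downstream) with a mean normalized count of 485, the highest among the mesenchymal-side peaks. Closed peaks of 280 and 49.2 flank it 839 bp downstream and 551 bp upstream, so that 3 closed peaks line the promoter. A distant closed peak 758 kb upstream had 408 over 671 bp, which is 607 per kb and thus more per kb than the promoter peak (519). Other strong closed peaks lie 251 and 364 kb downstream, with 220 and 164, and 374 kb upstream, with 182. The 2 opened peaks are among the weakest of the locus, with 6.70 and 9.26. Of the 44 peaks, 27 lie over 100 kb from a start site of the gene, 26 of them closed, and 15 lie in the gene body, 14 of them closed. Adjacent peaks were in the same list in 39 of 43 pairs (90.7%).

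**Figure D2:**
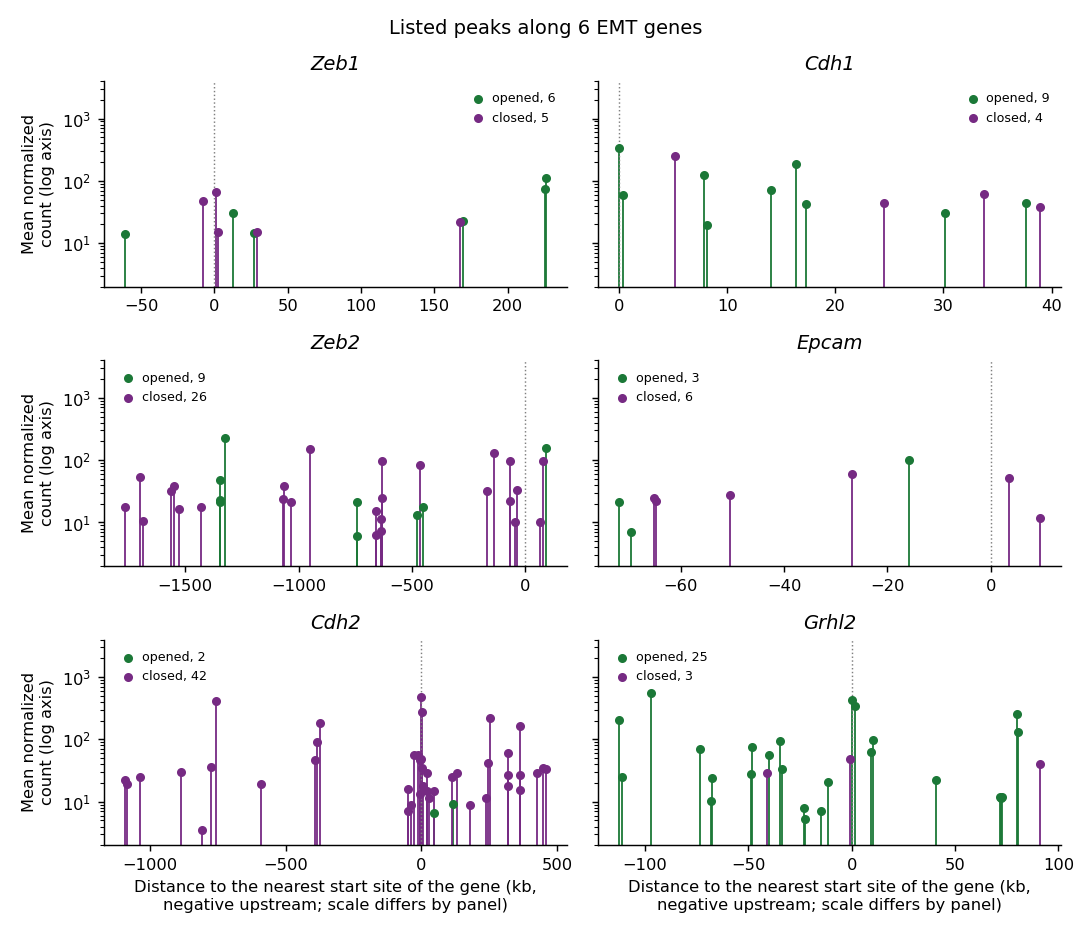
Mean normalized count over all libraries (log axis) of each listed peak, against the distance of its centre from the nearest start site of the gene in kb, for the 6 members with at least 9 peaks (opened green, closed purple, start site dotted). Closed peaks fill the *Cdh2* panel and opened peaks the *Grhl2* panel, while the lists alternate in the part of *Cdh1* farthest downstream. The distance scale differs between panels.

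The E-box repressors did not share a direction. *Snai1* had only opened peaks, and its strongest lies on the promoter, from 167537861 to 167538409 on chromosome 2 (centre 60 bp upstream), with a mean normalized count of 329. Peaks of 73.0 and 22.5 follow 5.82 and 7.42 kb downstream, behind the end of this short gene. *Snai2* had only closed peaks, a promoter peak from 14705403 to 14706026 on chromosome 16 (centre 138 bp upstream) with 402, and an intergenic peak 94.5 kb downstream with 136. The promoters of these closely related repressors were therefore listed in opposite directions, at 599 and 645 normalized counts per kb. The promoter windows differ in base composition as well. The 200 bp at the centre of the *Snai1* peak have a GC content of 68.5% and 20 CpG dinucleotides, and those of the *Snai2* peak have 41.5% and 1.

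*Zeb1* had 6 opened and 5 closed peaks, and all 11 lie nearer to a start site of a gene of another type. No listed peak lies within 1 kb of its start. The nearest are closed peaks 1.37 and 2.17 kb downstream, with mean normalized counts of 66.8 and 15.0, at a start site of the transcript Gm10125. Its strongest peaks, with 113 and 74.5, are opened and lie about 226 and 225 kb downstream, beyond the end of the gene. In the gene body 3 peaks were opened and 4 were closed, none with a count over 66.8. *Zeb2* had 9 opened and 26 closed peaks, an opened share of 25.7% (14.2 to 42.1%) against 53.5% of the peaks of chromosome 2. None lies within 37.5 kb of a start site of the gene. *Zeb2* borders a gene desert of 3700 kb, and 23 of its 35 peaks lie over 500 kb from it, all of them upstream. Every one of the 35 lies nearer to a start site of a gene of another type, and which gene such distant sites serve was not tested. The highest opened count, 227 over 1054 bp, belongs to a peak 1330 kb upstream at the start of the transcript Gm13470, next to 3 weaker opened peaks. The highest closed count, 151 over 644 bp, belongs to an intergenic peak 948 kb upstream. Nearer to the gene, closed peaks of 130 and 97.1 lie 138 and 68.0 kb upstream. Within the gene a closed peak of 97.1 and an opened peak of 159 lie 78.5 and 90.4 kb downstream. A further 3 opened peaks in the gene body count for *Gtdc1*.

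*Twist1* had 1 closed peak, with a mean normalized count of 105, over its exon from 33957832 to 33958390 on chromosome 12, 440 bp downstream of the start. The 200 bp at its centre have a GC content of 78.0% and 31 CpG dinucleotides. *Vim* had no listed peak. The nearest lies 160 kb from its start site, a closed peak that counts for *Cubn*, so neither its promoter nor its body passed the limits of the lists in either direction. Vimentin is a widely used mesenchymal marker, and how accessible its gene is in each group was not analysed here.

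**Figure D3:**
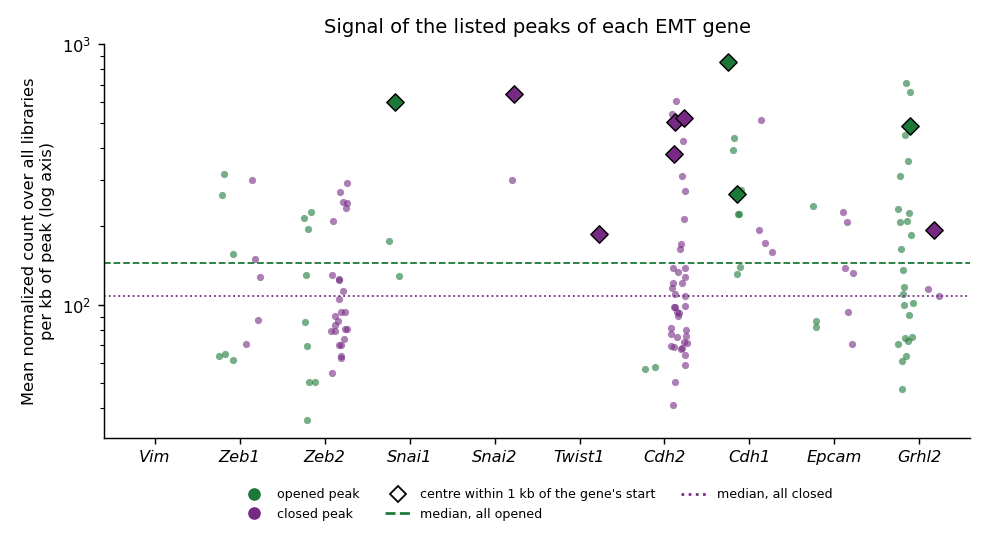
Mean normalized count over all libraries per kb of peak (log axis) for each of the 146 peaks by gene, opened green and closed purple, with diamonds for peaks centred within 1 kb of a start site of the gene. Dashed and dotted lines are the medians of all opened peaks (144) and of all closed peaks (108), and most promoter peaks lie above them, the highest being the opened *Cdh1* promoter peak at 855.

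By signal, the members' peaks resemble the listed peaks as a whole. The median mean normalized count was 31.0 for the opened and 29.4 for the closed member peaks, against 40.7 and 25.8 over all listed peaks, and per kb of peak it was 139 and 113 against 144 and 108. By side, the medians of the opened peaks were 22.6 (107 per kb) on the mesenchymal and 43.9 (185 per kb) on the epithelial side. Those of the closed peaks were 28.9 (102 per kb) and 40.4 (159 per kb). The median width of the member peaks, 261 bp, compares with 269 bp. They differ in position. Intergenic peaks made up 52.1% of the member peaks against 33.6% of all, intron peaks 30.8% against 46.8%, and promoter peaks of any annotated gene 14.4% against 16.1%. Of the members' peaks 41.8% lie over 100 kb from the start site, against 21.1% of all, and nearly all of these distant ones belong to *Zeb2* and *Cdh2* (28 and 27 of 61). Of the 21 promoter peaks, 10 lie at a start site of the member itself and the others at transcripts of other types. Adjacent member peaks were in the same list in 105 of 137 pairs (76.6%, against 74.8%), and in 33 of 37 pairs within 2 kb (89.2%, against 91.0%).

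Short motif cores were searched as exact matches on both strands in the 200 bp at the centre of each peak. In peaks narrower than 200 bp the window reaches beyond the peak, so a match can lie outside it. They are the ZEB/SNAI E-box CAGGTG, the E-box CAGCTG, the TEAD core CATTCC, the FOX core TGTTTAC, the AP-1 core TGACTCA, the GRHL core AACCNGTT, the RBPJ core TGGGAA, which the Notch effector RBPJ prefers, and the NKX2 core CACTTGA. The RBPJ core and the reverse strand of the TEAD core share 4 letters and can overlap. A match describes the letters and is no evidence of binding. The ZEB/SNAI E-box was present in 15 of 57 opened member windows, 26.3% (16.6 to 39.0%), against 16.4% of all opened peaks, and in 23 of 89 closed ones, 25.8% (17.9 to 35.8%), against 28.6% of all closed peaks. It was present in 5 of the 9 opened *Cdh1* windows, among them both at the promoter, and in 1 of the 4 closed ones. Over the whole peak it was in 4 of the 9 opened and 2 of the 4 closed *Cdh1* peaks. The RBPJ core was in 20 of the opened member windows, 35.1%, against 20.7% of all opened peaks, and in 21.3% of the closed ones against 16.3%. By side, it was in 17 of 37 opened windows (45.9%, 31.0 to 61.6%) on the epithelial and in 3 of 20 (15.0%, 5.24 to 36.0%) on the mesenchymal side. At *Grhl2* 12 of 25 opened windows held it, 48.0% (30.0 to 66.5%), although those at the start site and at the highest peak did not. This single gene thus has 12 of the 20 opened member windows with the RBPJ core. The TEAD core was in 19.3% of the opened and 4.49% of the closed member windows, against 18.1% and 8.78% of all. AP-1 cores went the other way, with 12.3% and 25.8%, against 8.45% and 21.2%. The GRHL core was in 5.26% and 2.25%, against 3.47% and 1.61%, and 1 of the opened *Cdh1* windows held it. The remaining shares for opened and closed member windows were 14.0% and 15.7% for CAGCTG, 7.02% and 12.4% for FOX and 8.77% and 6.74% for NKX2, against 12.0% and 22.6%, 6.85% and 9.70%, and 6.68% and 5.03% of all. Of these 16 shares of member windows, those of the ZEB/SNAI E-box and of the RBPJ core in opened windows had a Wilson interval (24.0 to 48.1% for RBPJ) above the share of all opened peaks, and the intervals of the other 14 include the share of all listed peaks of the same list. Over the whole peak, the ZEB/SNAI E-box was in 26.3% of the opened member peaks against 26.6% of all opened peaks, so this difference was absent, while the RBPJ core was in 47.4% against 30.6%.

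Other genes of the EMT program were described in the same way. Of 22 further epithelial genes, all had a listed peak (66.5% of all protein-coding genes had one), 20 had more opened than closed peaks (54.9% of all genes with a peak) and 2 had more closed (37.5%). Together they had 109 opened and 24 closed peaks, an opened share of 82.0% (Wilson interval 74.6 to 87.6%) against 50.8% of all listed peaks. An opened promoter peak was found at 16 of the 22, against 26.6% of all genes. The highest numbers of opened peaks were those of *Grhl3* (13), a relative of *Grhl2*, *Tjp1* (12), which encodes the tight junction protein ZO-1, the keratin gene *Krt19* (10) and the claudin gene *Cldn3* (10). The highest numbers of closed peaks were those of the desmosome gene *Dsp* (6), *Cldn4* (4), *Grhl1* (3) and *Tjp1* (3). Together with *Epcam*, *Dsp* and *Cldn4* were the epithelial genes with more closed than opened peaks. Of 16 further mesenchymal genes, 10 had more opened peaks, 4 had more closed, 1 (*Axl*) had as many of each and *Gsc* had none, with 75 opened and 46 closed peaks (62.0% opened, 53.1 to 70.1%, against 50.8%). The 10 of the 15 genes with a peak are near the 54.9% of all genes with a peak that had more opened peaks. The growth factor gene *Tgfb2* (20 opened, 1 closed), *Twist2* (11 and 0), the adhesion receptor gene *Cd44* (9 and 0) and *Sparc* (9 and 0) led the opened counts. *Tcf4*, which encodes an E protein partner of basic helix-loop-helix factors, had 3 opened and 28 closed peaks, the fibronectin gene *Fn1* 7 and 9, and the cadherin gene *Cdh11* 4 and 5. The mesenchymal genes therefore did not share a direction, with *Cdh2* and *Tcf4* on the closed side and *Tgfb2*, *Twist2* and *Snai1* on the opened side. On chromosome 11, 71.1% of all listed peaks were opened. No member lies there, and without *Krt19*, *Cldn7* and *Sparc*, which do, the opened shares were 80.0% for the epithelial and 58.9% for the mesenchymal genes.

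**Figure D4:**
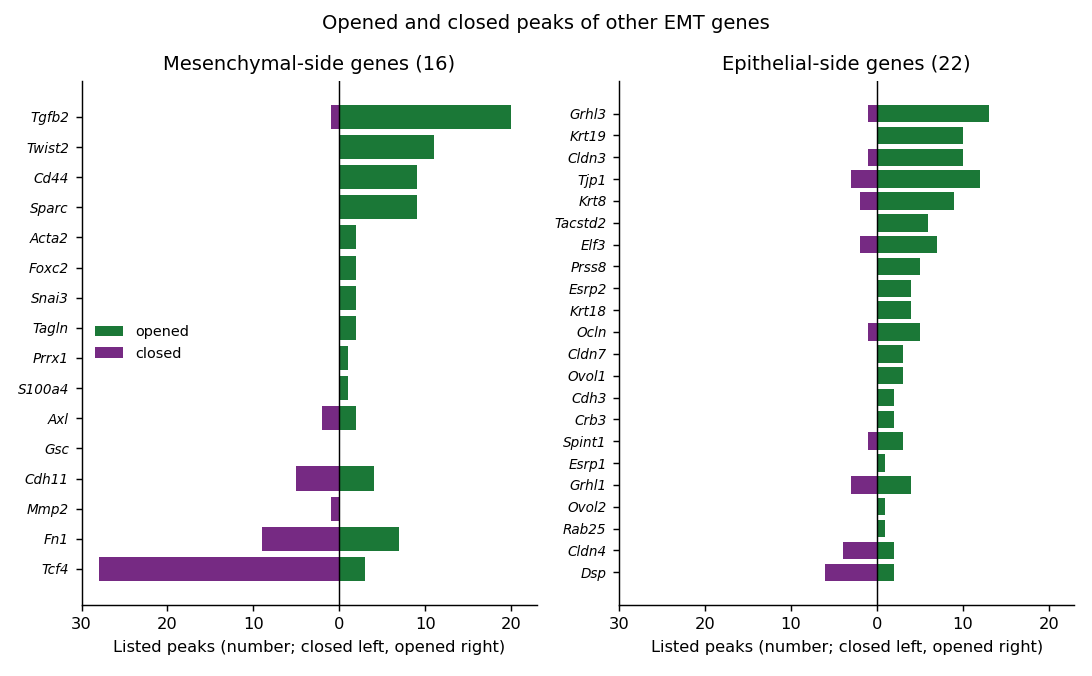
Number of opened peaks (green, right of 0) and closed peaks (purple, left of 0) for 16 further mesenchymal-side and 22 further epithelial-side EMT genes, ordered by the difference. On the epithelial side 20 genes have more opened peaks, and on the mesenchymal side *Tgfb2* has 20 opened and *Tcf4* has 28 closed peaks.

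Cell type markers were counted in the same way. Over all protein-coding genes 66.5% had a listed peak, 26.6% an opened and 8.43% a closed promoter peak, and 50.8% of all listed peaks were opened, against which the following counts are to be read. Of 8 NE markers, 7 had a closed promoter peak (*Syp* had no listed peak), with 11 opened and 60 closed peaks in all, and *Chga* alone had more opened (8) than closed peaks (6). The club cell markers *Scgb1a1* (12 opened, 3 closed peaks), *Scgb3a2* (3 and 0) and *Cyp2f2* (5 and 0) had an opened promoter peak. So did *Hes1* (26 and 11), which was in the same list, but the cells were sorted by its reporter and its direction is no check. The sort took cells negative for CD45, CD31 and TER-119, markers of leukocytes, endothelium and red cells, and positive for CD24, a marker that SCLC cells carry. Of 8 leukocyte markers, 3 had no listed peak and none had one at its promoter, with 16 opened and 5 closed peaks, 11 and 5 of them at *Ptprc*. The 6 endothelial markers had 15 opened and 45 closed peaks, with an opened promoter peak at *Kdr* and a closed one at *Tek*. The 8 fibroblast markers had 10 opened and 13 closed peaks, with an opened promoter peak at *Col1a1*, a closed one at *Col1a2* and no peak at 4 of the 8. Without *Col1a1*, which lies on chromosome 11 and had 7 of the opened peaks, they had 3 opened and 13 closed peaks, and their opened share was 18.8% in place of 43.5%. The part of other cells in the members' peaks was not tested.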

How the data were processed

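ATAC-seq libraries were made from sorted GFP-high and GFP-neg cells, 4 per group from 3 mice, and groups were taken from the reporter status in the labels. The authors trimmed the reads, aligned them to mm10 with Bowtie2 (2.3.4.1), removed duplicates with Samtools, called peaks with MACS2 after extending and shifting the reads around the Tn5 cuts, merged the peaks of all samples, counted reads with bedtools and compared the groups with DESeq2 (1.28.1). The tools with versions are those of the submitters' processing notes. Duplicate removal and the use of size factors bear on the counts, and the files do not show whether lanes or the technical replicate were summed.

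The deposited lists give the peaks past the authors' limits on fold change (more than 2-fold) and adjusted p. The only signal used here is the authors' mean normalized count per peak, the deposited mean over all libraries of counts divided by size factors. The files also hold the authors' log2 fold change with its standard error, test statistic, p-value and adjusted p-value. These columns were not used. With no value per library, the depth per library is unknown, replicates could not be compared, and no SD, n or test is given.

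Peaks of both lists were pooled, and each was given to the protein-coding gene whose start site is nearest to its centre (GENCODE vM21 basic on GRCm38, the assembly of mm10). Positions are 1-based. A promoter peak had its centre within 1 kb of a start site, and the other classes are exon, intron and intergenic. Cores were searched in 200 bp around the centre, and RefSeq promoters (GRCm38) in the 250 bases before the start. Promoters of 5 of the 10 genes matched by symbol. Shares have Wilson intervals at 95% confidence, which hold for counting error alone, and peaks are not replicates of the conditions. All 10 genes are named, and of the further EMT genes those with the 3 highest numbers of opened or of closed peaks in each list, ties kept. Sequences were to be printed for the promoter peak and the highest peak of each gene off chromosome 18. They are given for genes in the RefSeq table and regions outside annotated exons, from the highest peak of either list, a change made after the values were seen, and 1 such region is not reported here. *Axl*, *Gsc*, *Cldn7* and *Ptprc* and single cell type markers were also named after their values were seen. The members, lists and cores were chosen with earlier results of these data known. The assignment and the core search were tested on simulated data. Python 3.11.15, numpy 2.4.6, pandas 2.3.3, scipy 1.17.1 and matplotlib 3.10.9 were used.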

Additional observations from a re-analysis of the deposited data

How the results depend on the processing

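No paired analysis was possible because the files hold no value per library, so the replicate block, leaving out a library and another normalization could not be run, and stricter limits on the authors' comparison were not run because its columns were not used. The number of member peaks, 146, fell to 45 with start sites of genes of any type, to 68 within 10 kb of the gene bodies and to 85 within 100 kb of a start site. Of the mesenchymal-side peaks 22, 36 and 37 remained in the same order, and 62 with a mean normalized count of at least 20, and of the epithelial-side peaks 23 with start sites of any type and 32 within 10 kb of the gene bodies. The opened share of all member peaks, 39.0%, became 50.6% within 100 kb of a start site, about that of all listed peaks, 53.9% without *Cdh2* and 27.1% without *Grhl2*. The mesenchymal-side share, 20.8%, became 30.6% within 10 kb of the gene bodies and 34.6% without *Cdh2*, and the epithelial-side share, 74.0%, became 54.5% without *Grhl2*. Searching the whole peak moved the share with CAGCTG from 15.1 to 21.9%. The remaining 47 values of this kind moved by less than their Wilson interval, or by less than 1.5 times for numbers, and of 120 values for single genes 92 did so. With start sites of any gene type *Zeb1* and *Zeb2* kept 0 peaks. Promoter peaks numbered 26 with a distance of 3 kb, against 21. Leaving out single genes, changing the start sites to those of protein-coding transcripts and repeating the side shares were chosen after seeing the data.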
